A study of Mus musculus with 6 samples.

Results

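Hepatocytes export fat as very low-density lipoprotein (VLDL), and the 10 genes described here encode apolipoproteins and proteins that build these particles. The genes were chosen by name, as Apob, Mttp, Tm6sf2, Sar1b, Apoa1, Apoa2, Apoa4, Apoa5, Apoc3 and Apoe. All 10 were measured among 19938 genes on the arrays, each by a single probe set. Primary hepatocytes of a male wild-type C57BL/6J mouse aged 10 weeks were transfected overnight with control siRNA (siControl) or with siRNA against RetSat (siRetSat), 1 nmol in each case. RetSat is an oxidoreductase of the endoplasmic reticulum that reduces retinol. RNA was harvested 48 h after the medium change, and 3 transfections per group were hybridised to Affymetrix Mouse Gene 1.0 ST arrays. Both groups were seeded in medium with 25 mM glucose and received the same transfection reagent.

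The labels describe cells of 1 mouse, so that p-values measure the spread between transfections and not between animals. No group with another siRNA sequence was labelled, so that loss of RetSat and other effects of that siRNA cannot be told apart. RetSat mRNA itself was strongly lowered, with a log2 value for Retsat of 6.95 ± 0.13 in siControl and 4.75 ± 0.12 in siRetSat (SD, n = 3 each), which leaves 21.8% of the control signal (limma adjusted p = 0.000112). Values below are normalized log2 intensities, and a log2 fold change is the siRetSat mean minus the siControl mean. They allow no comparison of one gene's abundance with another's.

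VLDL assembly starts in the endoplasmic reticulum, where microsomal triglyceride transfer protein (Mttp) loads lipid onto the growing apolipoprotein B (Apob) chain. The particle is enlarged with further triglyceride and leaves in COPII vesicles, whose coat is recruited by the small GTPase Sar1. In the circulation, small exchangeable apolipoproteins regulate lipolysis of the particle and its uptake, while apolipoproteins A-I and A-II are the main proteins of high-density lipoprotein (HDL).

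None of the 10 genes passed an adjusted p of 0.05 in siRetSat against siControl (limma, Benjamini-Hochberg over all genes), where 3.56% of all genes did. Without adjustment, 3 of the 10 had a limma p under 0.05 (14.5% of all genes), namely Sar1b, Apob and Apoa5. The methods' t-test gave 0 with adjustment and 4 without, namely Apoe, Sar1b, Apob and Mttp. The study called genes by an unadjusted P under 0.05 together with a minimum fold, on the log2 scale a change of 0.32 or more. With limma p-values in place of the study's own test, 3 of the 10 met this rule, against 9.05% of all genes. These were Sar1b as higher (4.47% of all genes) and Apob and Apoa5 as lower (4.58% of all genes). With p-values of the study's own test, 2 of the 10 met it, Sar1b and Apob, and Apoa5 did not. The 3 siRetSat values lay wholly outside the siControl values for 4 of the 10, namely Sar1b and Apoe above and Apob and Mttp below, against 19.5% of all genes. The log2 fold changes were positive for 5 and negative for 5, with a median of 0.05 beside 0.00 over all genes. For 7 of the 10, the 95% confidence interval excluded a change of 1.5-fold in either direction, the exceptions being Sar1b, Apob and Apoa5.

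**Figure D1:**
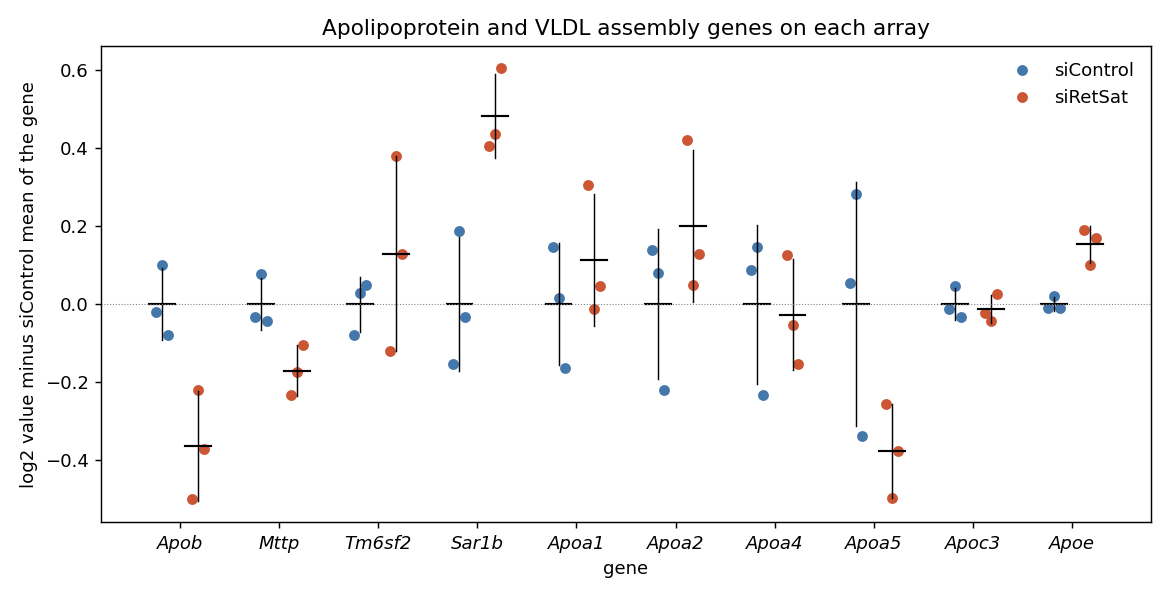
Log2 values of the 10 genes on every array (1 dot each), set to 0 at the siControl mean of the gene, in blue for siControl and red for siRetSat. Black bars give the mean of 3 arrays with a line of 1 SD up and down, with Sar1b at 0.48 and Apob at -0.36 clear of their controls.

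Because Apob, Apoa5 and Sar1b had the largest differences of the set, the 250 bases before their transcription starts are shown, from RefSeq on GRCm38.p6, 5′ to 3′ on the strand of the gene. Capitals mark matches to TATAAA (the TATA box) or CACGTG (an E-box), and 6 short motifs were searched on both strands.
Apob, chr12:7977427-7977676, + strand: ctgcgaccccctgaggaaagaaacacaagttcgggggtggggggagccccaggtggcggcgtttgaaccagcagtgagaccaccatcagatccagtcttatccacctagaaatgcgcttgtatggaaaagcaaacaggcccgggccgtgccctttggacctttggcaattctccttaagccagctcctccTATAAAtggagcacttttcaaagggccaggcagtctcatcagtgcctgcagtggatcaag
Apoa5, chr9:46268358-46268607, + strand: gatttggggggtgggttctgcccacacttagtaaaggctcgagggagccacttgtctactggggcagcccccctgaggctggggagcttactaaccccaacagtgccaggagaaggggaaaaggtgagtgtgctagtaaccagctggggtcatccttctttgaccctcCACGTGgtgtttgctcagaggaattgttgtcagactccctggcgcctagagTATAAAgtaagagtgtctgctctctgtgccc
Sar1b, chr11:51763413-51763662, + strand: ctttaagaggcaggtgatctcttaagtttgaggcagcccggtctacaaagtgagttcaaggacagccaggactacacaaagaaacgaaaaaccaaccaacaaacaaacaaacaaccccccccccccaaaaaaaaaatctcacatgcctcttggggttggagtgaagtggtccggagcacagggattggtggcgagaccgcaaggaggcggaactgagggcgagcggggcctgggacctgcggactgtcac
The Apob window holds TATAAA 60 bases before the start, and the Apoa5 window holds it 31 bases and CACGTG 82 bases before the start. For Apoa5 a second, overlapping start is listed, which shifts these distances. The Sar1b window holds none of the 6 motifs. The promoter table held windows for 8 of the 10 genes. These 8 genes had 12 windows. TATAAA was in 5 of the 12, from 4 genes, beside 12.4% of all 32851 promoter windows. The 2 overlapping Apoa5 windows share a match. The matches of Apoa2 (212 bases) and Apoe (100 and 96 bases) lay before only 1 of the starts listed for each. CACGTG was found for 1 of the 8, Apoa5, in its 2 overlapping windows of the 12, beside 6.02% of all windows. Of the others, AGGTCA (bound by nuclear receptors) was in 1 of the 12, for Apoa2, beside 14% of all windows. GTTAAT (part of the site of the liver factor HNF1) was in 1 of the 12, for Apoe, beside 6.43% of all windows. CAAAGTCCA (an HNF4 element) and GGGCGG (the GC box) were in no window of the 8, beside 0.384% and 32.7% of all windows. No motif overlapped another within the 3 windows shown.

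Apob, the structural protein of which each VLDL particle carries a single copy, was lower in siRetSat on every array, but not past the adjusted threshold. Its log2 values were 9.85, 9.97 and 9.79 in siControl against 9.37, 9.65 and 9.50 in siRetSat. The groups did not overlap, the nearest values being 0.14 apart, and siRetSat 1 was the lowest array. The siControl mean of 9.87 ± 0.09 and the siRetSat mean of 9.51 ± 0.14 (SD, n = 3 each) differ by a log2 fold change of -0.36 (standard error, SE, 0.103, 95% interval -0.60 to -0.13, limma adjusted p = 0.121). This corresponds to 77.7% of the control signal. The exact two-sided permutation test gave p = 0.1, the smallest that 3 arrays against 3 allow.

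Mttp, the lipid transfer protein that lipidates Apob, had a small difference in the same direction as Apob. The siControl arrays gave log2 values of 8.78, 8.89 and 8.77, and the siRetSat arrays 8.58, 8.64 and 8.71. All siRetSat arrays were below all siControl arrays, by a margin of only 0.06. Between the means, the log2 fold change was -0.17 (SE 0.0865, 95% interval -0.37 to 0.03, limma adjusted p = 0.446).

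Tm6sf2, a membrane protein of the endoplasmic reticulum and Golgi needed to load VLDL with triglyceride, varied more within siRetSat than between the groups. Log2 values of 5.73, 5.84 and 5.86 in siControl compared with 5.69, 6.19 and 5.94 in siRetSat. The siRetSat arrays included both the lowest and the highest of the 6. The log2 fold change was 0.13 (SE 0.131, 95% interval -0.17 to 0.43, limma adjusted p = 0.800) and was 0.005 without siRetSat 2 and 0.255 without siRetSat 1.

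Sar1b, the Sar1 GTPase whose loss in humans causes chylomicron retention disease, had the smallest p of the 10 genes and was higher on every siRetSat array. Its log2 values were 9.99, 10.33 and 10.11 in siControl against 10.55, 10.58 and 10.75 in siRetSat. The groups were separated by 0.22. From 10.14 ± 0.17 to 10.63 ± 0.11 (SD, n = 3 each) the log2 fold change was 0.48 (SE 0.113, 95% interval 0.22 to 0.74, limma adjusted p = 0.0628), or 140% of the control signal. Its paralog Sar1a, which also recruits the COPII coat, had a log2 fold change of -0.01 (limma adjusted p = 0.992). Sar1b passed the adjusted threshold under 5 of 19 alternative settings and Apob under 3.

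**Figure D2:**
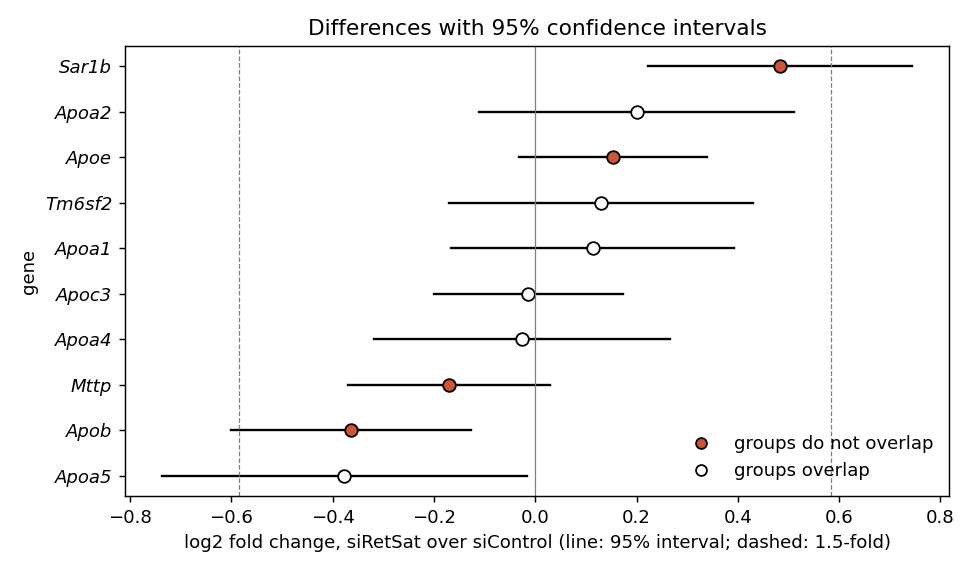
Log2 fold change of siRetSat over siControl for each of the 10 genes (point) with its 95% confidence interval from limma (line), 3 arrays per group. Filled points mark genes whose groups did not overlap, and the intervals of Sar1b, Apob and Apoa5 reach past the dashed lines at 1.5-fold.

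Apoa1 and Apoa2, the main HDL apolipoproteins, overlapped between the groups. The log2 values of Apoa1 were 10.83, 10.70 and 10.52 in siControl against 10.99, 10.67 and 10.73 in siRetSat. Those of Apoa2 were 11.01, 10.95 and 10.65 in siControl against 11.29, 10.92 and 11.00 in siRetSat. Both genes were lowest in siControl 3 and highest in siRetSat 1. Without siControl 3 or without siRetSat 1, the log2 fold change was 0.03 or 0.02 for Apoa1 and 0.09 in both cases for Apoa2. The log2 fold change was 0.11 for Apoa1 (95% interval -0.17 to 0.39, limma adjusted p = 0.818) and 0.20 for Apoa2 (95% interval -0.11 to 0.51, limma adjusted p = 0.633).

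Apoa4, which is also made by the intestine and accompanies triglyceride-rich particles, had nearly the same mean in both groups. The siControl arrays gave log2 values of 10.88, 10.94 and 10.56, and the siRetSat arrays 10.92, 10.74 and 10.64. All siRetSat arrays lay within the siControl range, with a log2 fold change of -0.03 (95% interval -0.32 to 0.27, limma adjusted p = 0.979). Apoa5, which promotes the clearance of triglyceride by lipoprotein lipase, had a log2 fold change of -0.38 with the widest interval of the set. Log2 values of 7.63, 7.86 and 7.24 in siControl compared with 7.32, 7.08 and 7.20 in siRetSat. The groups overlapped because siControl 3, at 7.24, lay below siRetSat 1. The means were 7.58 ± 0.31 and 7.20 ± 0.12 (SD, n = 3 each; SE of the difference 0.156, 95% interval -0.74 to -0.02, limma adjusted p = 0.315). Its log2 fold change was -0.24 without siControl 2 and -0.55 without siControl 3.

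Apoc3, which inhibits lipolysis and remnant uptake, had the smallest difference of the set. Its log2 values were 10.94, 11.00 and 10.92 in siControl against 10.93, 10.91 and 10.98 in siRetSat. Its log2 fold change was -0.01 (95% interval -0.20 to 0.17, limma adjusted p = 0.984).

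Apoe, the ligand through which remnants bind receptors of the LDL receptor family, was higher on every siRetSat array by a small amount. The siControl arrays gave log2 values of 12.50, 12.53 and 12.50, and the siRetSat arrays 12.70, 12.61 and 12.68. The groups were 0.08 apart. This is a log2 fold change of 0.15 (SE 0.0805, 95% interval -0.03 to 0.34, limma adjusted p = 0.467). The highest value of any probe set on the arrays was 13.7, and whether a signal this near the top of the scale narrows the difference was not tested. Apoe is also made by macrophages, of whose 14 markers measured 1 rose, Cd14 at 0.59 (limma adjusted p = 0.0208), and none fell. With 1 array omitted Cd14 passed in only 2 of 6 fits, those without siControl 3 and without siRetSat 1, and it did not pass with median centring (0.0633), after background subtraction (0.0691) or by the methods' t-test (0.103). The summed linear signal of the 14 was 2497 to 2780 in siControl and 3358 to 3592 in siRetSat. Most of that sum came from Cd68, a lysosomal protein, with 2091 to 2419 in siControl and 2876 to 3083 in siRetSat (log2 fold change 0.40, limma adjusted p = 0.0563). The other 13 summed to 361 to 406 and 481 to 520. Cd14 weighed most among these, with log2 means of 7.74 and 8.33, where the rest had group means of 4.56 or less. A sum without Cd14 was not taken. Only 2 of the 14, Cd68 and Cd14, had an unadjusted limma p under 0.05. Adgre1, which defines the lineage, was dim, as were 7 of the 14 in all, with log2 means of 3.16 and 3.25. Their part in the value of Apoe was not tested.

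Within the groups, several of the 10 genes were low or high on the same arrays. In siControl, 7 of the 10 were lowest on siControl 3, namely the 4 Apoa genes, Apob, Mttp and Apoc3. In siRetSat, the 4 Apoa genes and Apoe were highest on siRetSat 1. The range within siControl was 0.31 for Apoa1, 0.36 for Apoa2, 0.38 for Apoa4 and 0.62 for Apoa5, and 0.34 for Sar1b, 0.18 for Apob, 0.13 for Tm6sf2, 0.12 for Mttp, 0.08 for Apoc3 and 0.03 for Apoe. Apob, Mttp, Tm6sf2 and Sar1b were instead lowest on siRetSat 1 within siRetSat. Leaving out both arrays numbered 1, 2 or 3 gave Apoa5 log2 fold changes of -0.41, -0.175 and -0.545. In the same order, Apoa4 was at -0.06, 0.06 and -0.08, Apoa2 at 0.16, 0.315 and 0.125, and Apoa1 at 0.09, 0.185 and 0.065.

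**Figure D3:**
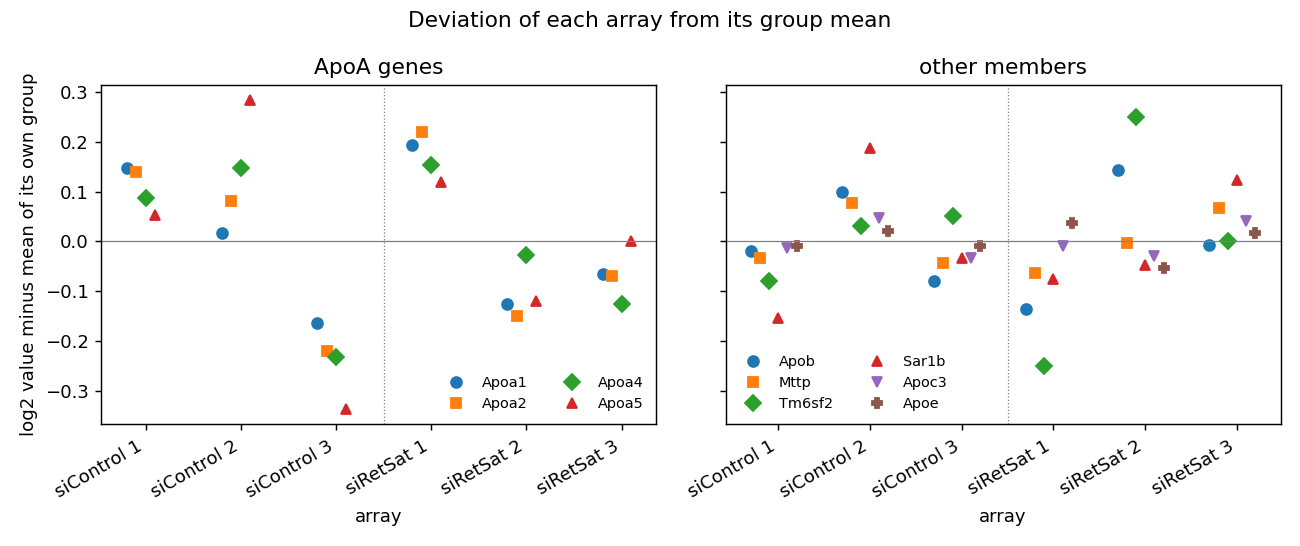
Log2 value of each gene on each array minus the mean of that gene in its own group, for the 4 Apoa genes (left) and the other 6 genes (right). On siControl 3 all genes but Tm6sf2 are below 0, and on siRetSat 1 the Apoa genes and Apoe are above 0, whereas Apob, Mttp, Tm6sf2 and Sar1b are below 0 on siRetSat 1.

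Some of the 10 genes lie side by side in the genome, and differences between neighbours were not tested. Apoa1, Apoc3, Apoa4 and Apoa5 follow each other on chromosome 9, with log2 fold changes of 0.11, -0.01, -0.03 and -0.38. Next to Apoa5 lies Zpr1, which encodes a zinc finger protein, and it fell with a log2 fold change of -0.47 (SE 0.0816, limma adjusted p = 0.0207). Log2 values of 8.16, 8.21 and 8.28 in siControl compared with 7.74, 7.74 and 7.75 in siRetSat. When 1 array was omitted, Zpr1 passed in 2 of 6 fits, and not without siControl 2 or 3 or siRetSat 2 or 3, where the adjusted p was at most 0.106, nor with median centring (0.0789). On chromosome 7, Apoe has Apoc1 on one side and Tomm40, a mitochondrial import pore, on the other. Apoc1, an inhibitor of remnant uptake, rose with a log2 fold change of 0.62 (SE 0.112, limma adjusted p = 0.0243), beside 0.15 for Apoe and -0.22 for Tomm40 (limma adjusted p = 0.251). The log2 values of Apoc1 were 9.87, 9.54 and 9.59 in siControl against 10.32, 10.18 and 10.35 in siRetSat. The groups of Apoc1 did not overlap, but it passed in only 1 of 6 fits with 1 array omitted, the one without siControl 1, with an adjusted p up to 0.129 in the others. Subtracting background gave Apoc1 0.0955 and the methods' t-test 0.135. Further along, Apoc4 had a log2 fold change of 0.09 (limma adjusted p = 0.851). The remaining adjacent genes measured had log2 fold changes from -0.17 for Sec24a, beside Sar1b, to 0.29 for Ldah, beside Apob, with adjusted p of 0.173 or more. Between these lay Klhl29, Trmt10a, Sugp1, Hapln4, Jade2, Sik3, Tomm40l and Fcer1g.

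Of 8 other apolipoproteins measured, 2 rose, none fell and 6 did not pass, with a median log2 fold change of 0.18 beside 0.00 over all genes. Of all 19938 genes, 380 rose and 330 fell. For this list the groups did not overlap for 4 genes higher and 1 lower, against 9.33% and 10.1% of all genes. Without adjustment 4 of the 8 had a limma p under 0.05, and the methods' t-test gave 1 with adjustment and 3 without. The list held Apoc1 and also Apof, a lipid transfer inhibitor protein carried on lipoproteins. Apof had log2 values of 9.59, 9.57 and 9.62 in siControl against 10.29, 10.13 and 10.26 in siRetSat. All siRetSat arrays were above all siControl arrays, and it rose by 0.63 (SE 0.0857, limma adjusted p = 0.00733). With 1 array omitted it passed in 5 of 6 fits, and had an adjusted p of 0.0559 without siControl 2. None of 6 measured genes of the APOL family passed in limma, 1 of them having an unadjusted p under 0.05, and the methods' t-test gave 0 with and 0 without adjustment. That 1 was Apol7a, at 0.67 (limma adjusted p = 0.164), and Apol10b, a dim gene, was at 0.09 (adjusted p = 0.806).

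Among 13 measured genes that lipidate VLDL or edit Apob mRNA, 1 rose, none fell and 12 did not pass, with a median log2 fold change of -0.10. The riser was Pla2g12b, a protein of the endoplasmic reticulum required for VLDL secretion, at 0.50 (SE 0.104, limma adjusted p = 0.0418). Its log2 values were 7.37, 7.61 and 7.64 in siControl against 7.94, 8.08 and 8.09 in siRetSat. Pla2g12b passed in only 1 of 6 fits with 1 array omitted, the one without siRetSat 1, and its adjusted p reached 0.178 in the others. The adjusted p was 0.177 with median centring, 0.106 after background subtraction and 0.145 by the methods' t-test. Dgat2, which catalyses the last step of triglyceride synthesis, had a log2 fold change of -0.38 (limma adjusted p = 0.0631). In this list the groups did not overlap for 5 genes higher and 5 lower, against 9.33% and 10.1% of all genes.

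The 18 genes that act in the exit of VLDL from the endoplasmic reticulum held no gene past the adjusted threshold in limma, with 4 at an unadjusted p under 0.05. The methods' t-test gave 0 with adjustment and 6 without. Their median log2 fold change was -0.10, and the groups did not overlap for 7 lower and 0 higher, against 10.1% and 9.33% of all genes. Klhl12, an adaptor that helps form large COPII carriers, was at -0.34 (limma adjusted p = 0.104), and Sec23a, an inner coat subunit, at -0.26 (limma adjusted p = 0.177). The log2 fold change of Sar1b, at 0.48, was of the opposite sign to the list median, but not to every gene of the list.

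Of 9 measured genes of HDL formation and remodelling none passed in limma, with 4 at an unadjusted p under 0.05, and the methods' t-test gave 0 with adjustment and 2 without. The median was 0.15, and the groups did not overlap for 4 higher and 0 lower, against 9.33% and 10.1% of all genes. Lipg, an endothelial lipase that was dim here, was at 0.38 (limma adjusted p = 0.167) but at 0.00 after background subtraction, and Pltp, which transfers phospholipid to HDL, at 0.33 (limma adjusted p = 0.217).

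No gene of the 9 lipoprotein receptors and their partners measured passed in limma, with 3 at an unadjusted p under 0.05, and the methods' t-test gave 0 with adjustment and 3 without. Sorl1, a sorting receptor, was at 0.38 (limma adjusted p = 0.0690) and Lrp8, a receptor for Apoe, at 0.37 (limma adjusted p = 0.123). Of 10 measured modulators of lipoprotein lipase, 1 fell, none rose and 9 did not pass, with a median of -0.16. Their groups did not overlap for 5 lower and 1 higher, against 10.1% and 9.33% of all genes. Lmf1, which matures lipases in the endoplasmic reticulum, fell with a log2 fold change of -0.46 (SE 0.0964, limma adjusted p = 0.0410). The siControl arrays gave log2 values of 8.66, 8.70 and 8.52, and the siRetSat arrays 8.28, 8.08 and 8.13. Without siRetSat 1 it passed as well, but not in the other 5 fits with 1 array omitted, where its adjusted p reached 0.192. The call was also lost after a second quantile normalization (0.0730), median centring (0.0515), background subtraction (0.0832) and by the methods' t-test (0.120). Furin, a protease that cleaves regulators of the lipase, was at -0.36 (limma adjusted p = 0.0933).

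Transcription factors known to act on apolipoprotein genes showed no call in limma among 29 measured, with 2 at an unadjusted p under 0.05, and the methods' t-test gave 0 with adjustment and 4 without. Their median log2 fold change was 0.01, or -0.01 after median centring. Rora, an orphan receptor, was at -0.28 (limma adjusted p = 0.169) and Prox1 at -0.43 (limma adjusted p = 0.197).

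**Figure D4:**
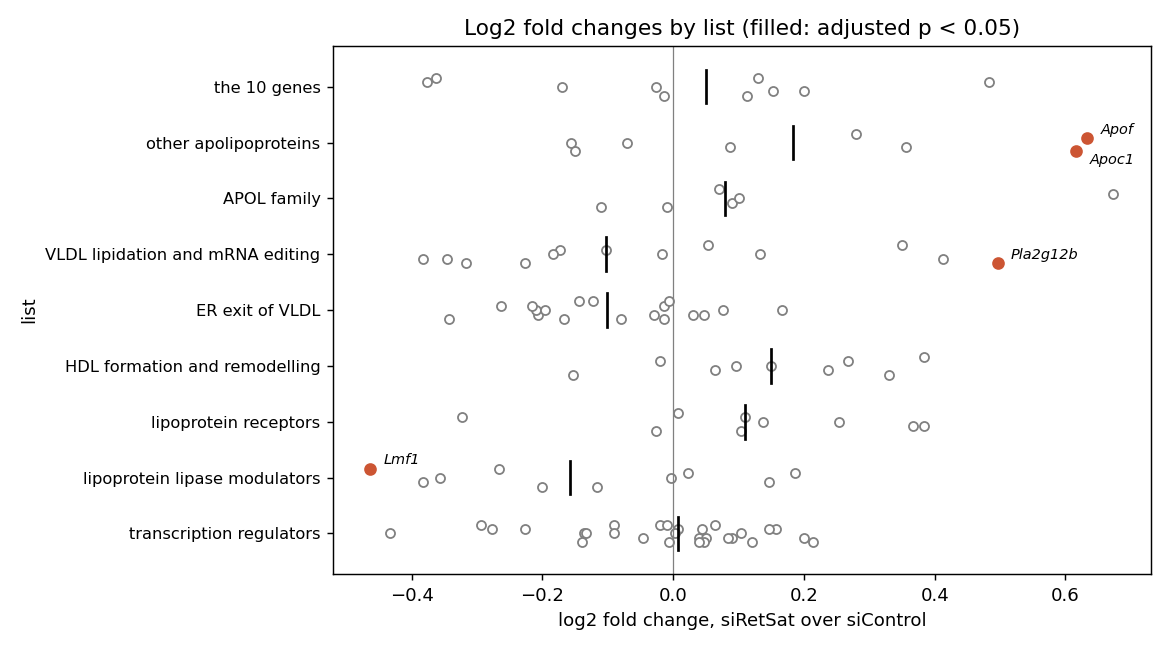
Log2 fold change of siRetSat over siControl for each measured gene of the set and of 8 surrounding lists (1 point per gene, 3 arrays per group), with the list median as a bar. The 4 genes with an adjusted p under 0.05 are filled and named, with Apof at 0.63, Apoc1 at 0.62, Pla2g12b at 0.50 and Lmf1 at -0.46.

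The hepatocyte identity of the cultures was checked on 10 markers. Alb (albumin) was at log2 means of 12.98 and 13.05 and Ttr (transthyretin) at 11.70 and 11.60. Of the 10 markers, 3 fell and none rose, with a median log2 fold change of -0.155. The groups did not overlap for 6 markers lower and 0 higher, against 10.1% and 9.33% of all genes. Ahsg (fetuin A) had a log2 fold change of -0.52 (limma adjusted p = 0.0196) and Cps1 (urea cycle) one of -0.82 (limma adjusted p = 0.0291), and Tat (tyrosine breakdown) one of -0.72 (limma adjusted p = 0.0452). Only Cps1 of the 3 passed with median centring, only Ahsg after background subtraction and none by the methods' t-test with adjustment, where 6 of the 10 markers had an unadjusted p under 0.05. The summed linear signal of the 10 was 31330 to 33483 in siControl and 29144 to 30667 in siRetSat. Without Alb it was 23686 to 24943 in siControl and 21008 to 21887 in siRetSat. In such bulk cultures, fewer cells of a type and less RNA per cell cannot be told apart. Of the stellate cell and fibroblast markers, 1 of 11 fell, Acta2 at -2.40 (limma adjusted p = 0.000205). Their summed linear signal was 1232 to 1463 in siControl and 436 to 690 in siRetSat, and without Acta2 it was 227 to 289 and 236 to 454. Among 6 cholangiocyte markers 1 rose, Sox9 at 0.45 (limma adjusted p = 0.0324, 0.152 with median centring and 0.0764 by the methods' t-test), and among 9 endothelial markers none passed, with 1 at an unadjusted p under 0.05 and 0 by the methods' t-test with adjustment. With 1 array omitted, Acta2 passed in 6 of 6 fits, whereas Ahsg passed without siControl 1 or siRetSat 1, Cps1 without siControl 1 or siControl 3, Tat without siControl 1 and Sox9 without siRetSat 1, and each failed in the other fits. The part of these shifts in the values of the apolipoprotein genes was not tested.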

How the data were processed

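The authors deposited log2 intensities for 35556 probe sets on 6 Affymetrix Mouse Gene 1.0 ST arrays (3 siControl, 3 siRetSat), for which 100 ng of RNA was amplified. Per the submitters' processing notes, RMA (background correction, quantile normalization and summary over probes) and Partek 6.6 were used. Filters, probe annotation version and build: each not given in the sources used here. Deposited values ran from 1.46 to 13.7, with array medians of 4.29 to 4.50. The number of arrays limits the precision. The labels give Dharmacon siRNA and the paper Eurogentec.

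Probe sets with 1 symbol in GEO's platform annotation (21789) were updated by Entrez identifier through the GRCm38.p6 RefSeq table (21698 matched). For 19938 genes the probe set with the highest mean was kept. The test was limma 3.58.1 under R 4.3.3 (lmFit with eBayes, no covariates, Benjamini-Hochberg over all genes, threshold 0.05). Dim genes had a mean under the 40th percentile of all probe sets, 3.78. The limma fit was also run on simulated arrays in which a small share of genes was changed. There 2.1% of 1.25-fold, 39.2% of 1.5-fold, 76.4% of 2-fold and 98.1% of 4-fold changes passed in the right direction. Plots were made with Python 3.11.15 and matplotlib 3.10.9.

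The members and lists were chosen with earlier results of these data known. Genes were named if they were Retsat, one of the 10, an adjacent gene, or, of each list, up to 4 past the threshold with the smallest p (otherwise the 2 with the smallest p), and up to 2 markers past the threshold per cell type. Sar1a, Apoc4, Alb, Ttr, Tat and Adgre1 are named for their role or as the next marker in p, and the promoter motifs and printed windows were chosen after the values were seen. Summed linear signals add 2 to the power of each log2 value. Such a sum is weighted by the signal of each probe set and does not compare the abundance of genes.

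Alternatives were the methods' t-test, an intensity trend, array weights, a block for the replicate number, omission of dim genes, a second quantile normalization, median centring, subtraction of the 5th percentile of each array with 16 as the lowest value allowed, averaging of probe sets per gene, all probe sets, and leaving out each array or both arrays of a number.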

Additional observations from a re-analysis of the deposited data

How the results depend on the processing

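Of the 10 genes, the number past the adjusted threshold was 0 in the fit reported, 1 with dim genes left out (Sar1b), 1 after a second quantile normalization (Sar1b), 2 with an intensity trend (Apob and Sar1b) and 3 with array weights (Apob, Sar1b and Apoa5), and 0 under every omission of 1 array or of both arrays of a number. The samples share only a replicate number: same-numbered arrays deviated from their group means with correlations of 0.547, 0.0398 and 0.541, and 4 of 6 arrays correlated best with their own number. With that number as a replicate block, 2 of the 10 passed (Apob with an adjusted p of 0.0366 and Sar1b with 0.0256), and 1541 of all genes in place of 710. Of the other genes named above, Apol7a (0.00874), Prox1 (0.03002), Dgat2 (0.0374), Sorl1 (0.0374), Lipg (0.0383) and Klhl12 (0.0396) gained a call with that block, all 6 of them with array weights too (Apol7a at 0.04997). The count of all genes was 196 by the methods' t-test, 1078 with an intensity trend, 2905 with array weights, 445 after background subtraction, 342 with median centring and 329 over all probe sets. It ran from 207 to 646 when 1 array was left out, at 207 and 294 for siControl 2 and siControl 3. For siRetSat 2 and siRetSat 3 it was 226 and 317. With both arrays of number 1, 2 or 3 omitted it was 822, 15 and 111, beside 710 in the fit reported. Past the study's cutoffs with limma p-values, 3 of the 10 became 1 without both arrays numbered 1. They became 1 to 3 when 1 array was left out, the 1 being without siControl 2. The cause of these differences was not tested, and a fit with arrays left out also holds fewer arrays. Over all probe sets the adjusted p was above the threshold for Apoc1 (0.0804), Pla2g12b (0.114), Lmf1 (0.109) and Zpr1 (0.0602). The log2 fold change kept its sign for 8 of the 10 under all 19 alternatives, while Apoa4 changed sign in 4 and Apoc3 in 3, both from values near 0.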
